A study of Mus musculus with 36 samples.

Results

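The cortex of wild-type mice from 2 narcolepsy model lines was compared, with 3 libraries from wild types of the Hcrt/Orexin-ataxin-3 line set against 3 libraries from wild types of the Hcrt/Orexin line. The 6 libraries were chosen by their tissue and genotype labels from the 36 libraries of the series. Neither group carries the mutation of its line, and the line, its breeding and the handling of its samples cannot be told apart in this design. The study sequenced polyadenylated RNA of cortex, hypothalamus and brainstem from 4 genotypes, namely ataxin-3 transgenic mice, their wild types, Hcrt knockout mice and their wild types. All groups are labelled C57BL/6, and the labels give no substrain, age, sex or number of animals. Nothing in the labels says that libraries of a group came from separate animals, so p-values measure the spread between these libraries, which may be technical.

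Hypocretin, also called orexin, is a neuropeptide made by a small group of neurons in the lateral hypothalamus that keep the animal awake through 2 receptors, and its loss causes narcolepsy. Cortex receives hypocretin axons but holds no hypocretin cell bodies. In the ataxin-3 line a toxic transgene, driven by the hypocretin promoter, kills those neurons, while in the Hcrt line the peptide gene itself is disrupted. Mouse lines that carry the same strain name can still differ, through separate breeding and through mouse DNA of the donor strain kept around an engineered locus.

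The libraries were of cortex by their genes, and they were deep. Counts assigned to genes were 36296770, 39626791 and 46001354 in libraries 1, 2 and 3 of the ataxin-3 line, against 30846049, 34293737 and 40760141 in those of the Hcrt line. The summed level of the list of excitatory cortical identity genes was 7334, 7233 and 7564 CPM (gene counts over library size, scaled with edgeR's trimmed mean of M values) in the ataxin-3 line and 7562, 7392 and 6960 in the Hcrt line. In the same wild types that sum did not exceed 403 CPM in brainstem or 1026 CPM in hypothalamus. Libraries of a group differed from each other by more than counting noise in each of the 6 pairs, their chi-square over its degrees of freedom being 3.43 to 6.69, so none was a copy of another. In what follows a log2 fold change is the ataxin-3 line minus the Hcrt line, positive where the ataxin-3 line is higher, and an adjusted p is the Benjamini-Hochberg value of edgeR's quasi-likelihood test over all genes tested.

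No gene differed between the wild types of the lines at an adjusted p under 0.05. Among 16479 genes tested in a fit of the 12 cortex libraries, 0 were called (0%), while 538 had an unadjusted p under 0.05 (3.26%), of which 231 lay higher (1.4%) and 307 lower (1.86%) in the ataxin-3 line. The median log2 fold change over all genes was 0.00 to 2 decimals, and 48.7% of genes lay higher. The 3 libraries of the ataxin-3 line lay above all 3 of the Hcrt line for 833 genes (5.05%) and below all 3 for 900 genes (5.46%). Other tools made calls: DESeq2 called 8 genes higher and 8 lower, limma voom with sample quality weights called 16 higher and 7 lower, and edgeR on the 6 libraries alone called 11 higher and 5 lower. The genes named below, unless said otherwise, are from the 10 of each direction with the smallest p under a restricted choice. Predicted genes (Gm and Rik names), unnamed identifiers and pseudogenes were passed over unless among the 3 largest changes of their direction. Some of those passed over had a smaller p than genes named here, such as G530011O06Rik. None is past the threshold, so their values are descriptions, and their groups were bound to stand apart because a small p chose them.

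Among the genes higher in the ataxin-3 line, the smallest p belonged to a gene of thyroid hormone breakdown. Dio3 encodes the type 3 deiodinase, which inactivates thyroid hormone, and is an imprinted gene on chromosome 12 (GRCm38, 110279068 to 110281097, plus strand). It stood at 1.52, 1.19 and 1.19 CPM in the ataxin-3 line, against 0.521, 0.470 and 0.683 CPM in the Hcrt line, a log2 fold change of 1.19 (SE 0.19, edgeR's adjusted p = 0.264). Every library of the ataxin-3 line had at least 47 counts of Dio3 and none of the Hcrt line had more than 28. A neighbour in the same imprinted cluster, Dlk1, which encodes a membrane ligand related to Notch ligands, stood at 4.04, 2.80 and 2.04 CPM in the ataxin-3 line, against 1.24, 1.53 and 1.07 CPM in the Hcrt line (log2 fold change 1.2, SE 0.35). Dlk1 is also a marker of hypocretin neurons and entered through that list. Nnat, a further imprinted gene that encodes the small membrane protein neuronatin, stood at 72.2, 60.9 and 57.4 CPM in the ataxin-3 line, against 40.8, 45.1 and 47.9 CPM in the Hcrt line (log2 fold change 0.51, SE 0.10, edgeR's adjusted p = 0.312). The groups did not overlap for any of these 3 genes.

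The other genes of this direction had log2 fold changes of 0.24 to 1.26, and none was past the threshold. Arhgap6, a GTPase-activating protein, stood at 8.07, 10.3 and 8.92 CPM in the ataxin-3 line, against 6.29, 4.99 and 5.83 CPM in the Hcrt line, a log2 fold change of 0.68 (SE 0.13). Camk2d, the delta subunit of the calcium/calmodulin-dependent kinase II, stood at 122.2, 132.6 and 122.2 CPM in the ataxin-3 line, against 102.4, 106.1 and 103.8 CPM in the Hcrt line (log2 fold change 0.27, SE 0.06). The 3 libraries of the Hcrt line lay within 4 CPM of each other for this gene. Hrk, which encodes a pro-apoptotic protein of the BH3-only class, stood at 40.7, 41.9 and 39.9 CPM in the ataxin-3 line, against 35.1, 32.6 and 30.8 CPM in the Hcrt line (log2 fold change 0.32, SE 0.06). Lypd1, a GPI-anchored protein that binds nicotinic receptors, and Ccn3, a secreted matricellular protein, had log2 fold changes of 0.37 (SE 0.08) and 0.33 (SE 0.07). Plcz1, the sperm phospholipase that activates the egg, had 31, 33 and 33 counts in the ataxin-3 line, against 12, 14 and 9 counts in the Hcrt line, a log2 fold change of 1.26 (SE 0.28). Scml4, a polycomb-like protein gene, had one of 0.56 (SE 0.13). Arhgap6, Camk2d, Ccn3 and Hrk were each called by DESeq2, by voom and by the fit of 6 libraries, and by no other alternative run.

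Among the genes lower in the ataxin-3 line were Ide and Mid1, which also lay lower in both other tissues. So did Igha (log2 fold change -2.09 in brainstem and -2.68 in hypothalamus) and Ciart (-0.18 and -0.08), none past the threshold there. Ide encodes the insulin-degrading enzyme, a metalloprotease that also cleaves amyloid beta. It stood at 57.3, 82.3 and 69.4 CPM in the ataxin-3 line, against 104.9, 129.9 and 97.5 CPM in the Hcrt line, a log2 fold change of -0.67 (SE 0.12, edgeR's adjusted p = 0.312). Mid1, a microtubule-binding E3 ubiquitin ligase, stood at 6.41, 6.19 and 6.29 CPM in the ataxin-3 line, against 11.6, 7.37 and 13.1 CPM in the Hcrt line (log2 fold change -0.77, SE 0.17). The ataxin-3 line was tight for Mid1 and the Hcrt line was not. Without library 2 of the Hcrt line the log2 fold change of Mid1 was -0.97 and edgeR's adjusted p was 0.0421, and without library 3 it was -0.59.

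The other genes lower in the ataxin-3 line were likewise not past the threshold. Gpr37, an orphan receptor of oligodendrocytes, had a log2 fold change of -0.31 (SE 0.07), and Ciart, a repressor in the circadian clock, one of -0.31 (SE 0.07). Arsg, a lysosomal sulfatase that acts on heparan sulfate, stood at 17.7, 18.6 and 16.6 CPM in the ataxin-3 line, against 20.6, 21.8 and 21.3 CPM in the Hcrt line (log2 fold change -0.27, SE 0.06). Igha, the constant region of the IgA heavy chain, had 1, 2 and 2 counts in the ataxin-3 line, against 4, 11 and 17 counts in the Hcrt line. The ratio of its summed counts, scaled for library size, was 0.136. Its 95% exact interval of 0.0414 to 0.352 covers counting error only. Without library 3 of the Hcrt line the ratio was 0.178 (0.0506 to 0.515). Igha was picked for a small p and had few counts in the ataxin-3 line, so these ratios describe it and support no difference between the lines. The last 3 genes, Cyp2g1, Cyp2a5 and Ugt2a2, are enzymes of the olfactory mucosa and are described with the nasal transcripts.

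**Figure D1:**
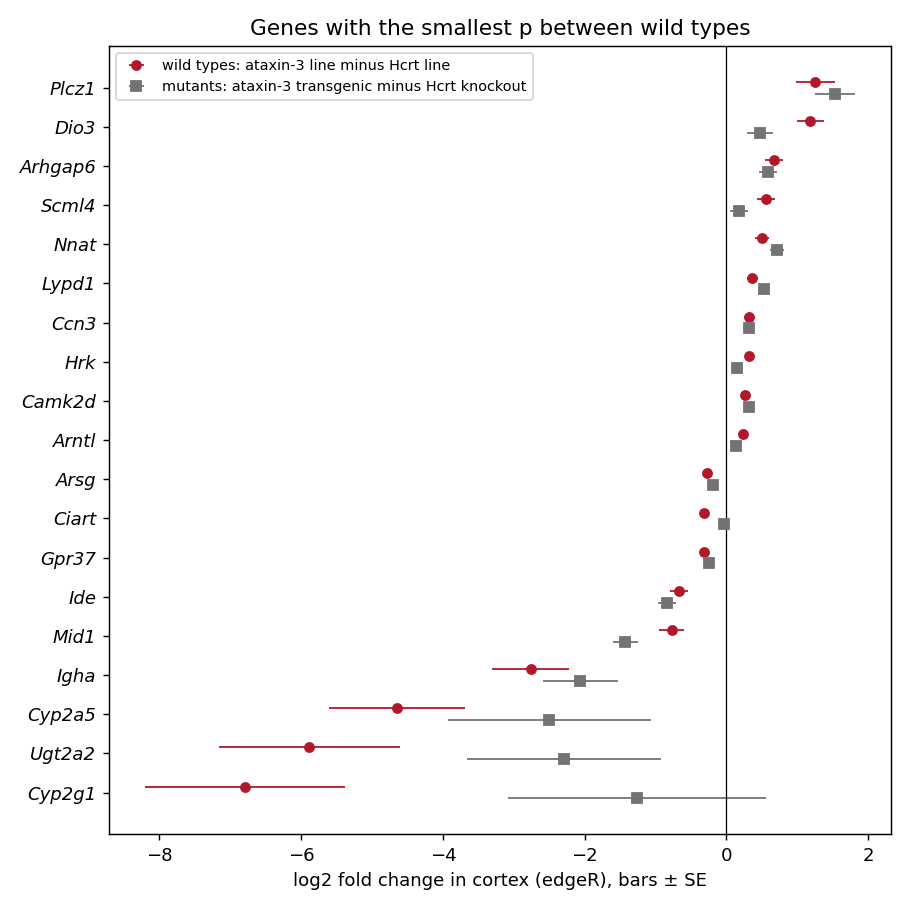
Log2 fold change (horizontal axis, ataxin-3 line minus Hcrt line) of 19 of the genes named for a small p. Points with bars of 1 standard error show cortex wild types and cortex mutants. All 19 mutant points lie on the same side of 0 as their wild-type points, with Dio3 nearer to 0 in mutants (0.48 against 1.19) and Mid1 farther (-1.43 against -0.77).

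The lowest and the highest library of each line in Ide were the same in every tissue. In the ataxin-3 line library 1 had the lowest and library 2 the highest Ide level in cortex, in brainstem and in hypothalamus, and in the Hcrt line library 3 had the lowest and library 2 the highest in all 3 tissues. Brainstem Ide stood at 71.8, 91.4 and 86.4 CPM in the ataxin-3 line, against 112.1, 131.7 and 97.0 CPM in the Hcrt line (log2 fold change -0.45, SE 0.12). Hypothalamus Ide stood at 58.9, 78.6 and 71.0 CPM in the ataxin-3 line, against 100.4, 123.6 and 88.5 CPM in the Hcrt line (log2 fold change -0.58, SE 0.14). The groups did not overlap in any of the 3 tissues. For Mid1, library 2 was the lowest of the Hcrt line in every tissue, but the highest was library 3 in cortex and brainstem and library 1 in hypothalamus, and the lowest and highest of the ataxin-3 line changed between tissues. Its log2 fold change was -0.60 (SE 0.21) in brainstem and -0.71 (SE 0.27) in hypothalamus. Neither gene was past edgeR's threshold in those tissues. The labels do not say whether libraries with the same number in different tissues came from 1 animal.

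**Figure D2:**
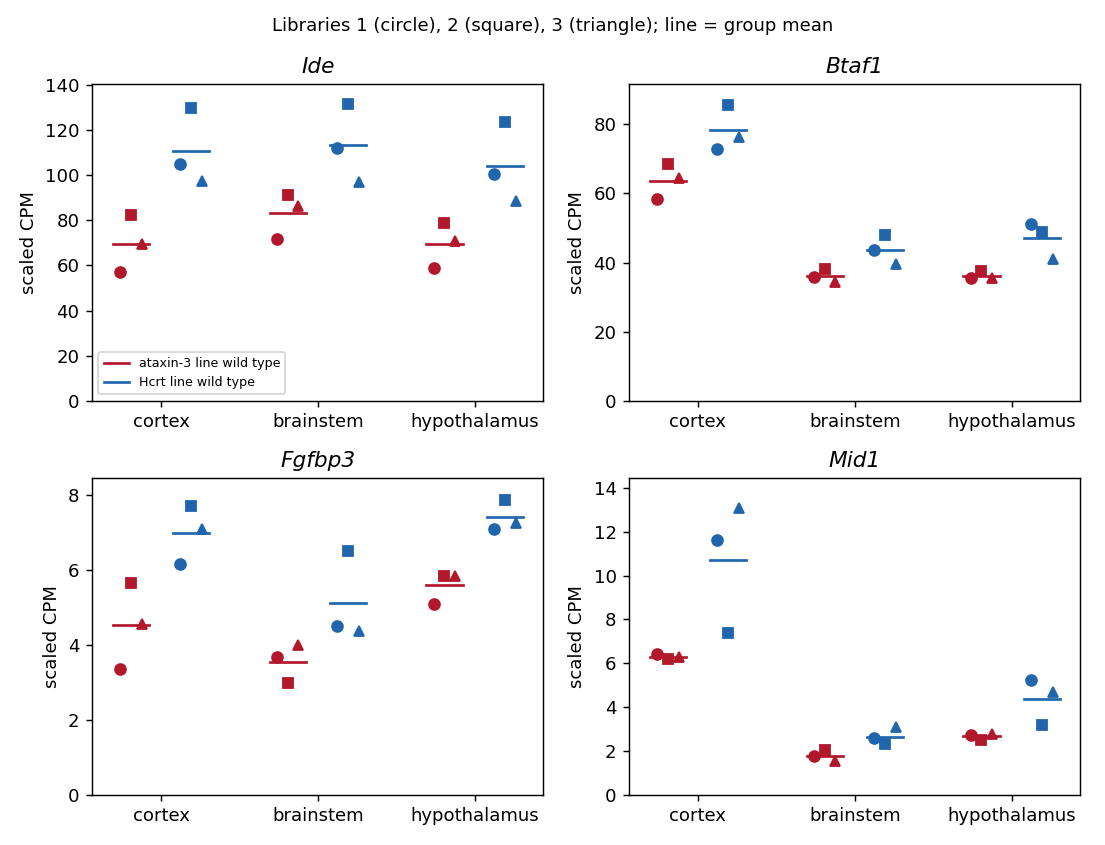
Level (vertical axes, scaled CPM) of Ide, its neighbours Btaf1 and Fgfbp3, and Mid1 in each wild-type library of cortex, brainstem and hypothalamus, with the ataxin-3 line left of the Hcrt line, lines at group means and libraries 1, 2 and 3 as circles, squares and triangles. In cortex the Ide libraries span 57.3 to 82.3 CPM in the ataxin-3 line and 97.5 to 129.9 CPM in the Hcrt line, and for Ide, but not for the other 3 genes, the lowest and the highest library of each line are the same in all 3 tissues.

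Ide lies on chromosome 19 (GRCm38, 37268743 to 37337852, minus strand), in a segment whose copy number is known to vary among C57BL/6 mice, and its nearest neighbours were examined after its values were seen. Of 20 annotated genes within 700 kb, 13 were tested, and 3 had an unadjusted p under 0.05, all lower in the ataxin-3 line (1.86% of all genes). One of them is Ide itself, whose small p chose the locus. The other members of this trio were Fgfbp3, a secreted protein that binds fibroblast growth factors, and Btaf1, a regulator of the TATA-binding protein. Fgfbp3 stood at 3.35, 5.66 and 4.55 CPM in the ataxin-3 line, against 6.16, 7.69 and 7.08 CPM in the Hcrt line (log2 fold change -0.62, SE 0.18). Btaf1 stood at 58.4, 68.4 and 64.3 CPM in the ataxin-3 line, against 72.7, 85.7 and 76.4 CPM in the Hcrt line (log2 fold change -0.30, SE 0.09). Both are intervals of chromosome 19 on the same side of Ide, Fgfbp3 at 36917550 to 36919615 and Btaf1 at 36926079 to 37012752. Other genes near them lay close to 0, with log2 fold changes of 0.04 for Tnks2, 0.01 for Cpeb3, 0.03 for Kif11 and -0.02 for Exoc6. Fgfbp3 was also lower in brainstem (-0.51) and hypothalamus (-0.40), and Btaf1 likewise (-0.28 and -0.38), none past the threshold. Copy number was not measured here.

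Mid1 lies at the end of chromosome X (GRCm38, 169685199 to 170005736, plus strand), where in C57BL/6 mice the gene crosses into the region shared with chromosome Y. Of 22 annotated genes within 1200 kb, 8 were tested and 3 had an unadjusted p under 0.05 (3.26% of all genes), of which 2 were lower in the ataxin-3 line, Mid1 itself included. The other lower gene, the predicted transcript G530011O06Rik, stood at 1.13, 1.06 and 0.967 CPM in the ataxin-3 line, against 1.99, 1.70 and 1.93 CPM in the Hcrt line (log2 fold change -0.83, SE 0.19). It lies inside Mid1 on the other strand (169975043 to 169978917, minus strand), and since the strand setting of the counting is not known, its reads and those of Mid1 cannot be told apart. It was lower by 0.98 in brainstem and by 1.11 in hypothalamus on the log2 scale without passing the threshold in either. Its neighbours Hccs, a mitochondrial heme lyase, and Msl3, a chromatin protein, both stood at a log2 fold change of -0.01. The third gene was Arhgap6, which lay higher as given above. Of 7 tested genes by which C57BL/6 substrains are known to differ, 2 had an unadjusted p under 0.05 (3.26% of all genes). They lay on opposite sides, Ide lower and Crb1 higher, and Ide was already chosen for its small p. Nnt, a mitochondrial transhydrogenase deleted in part in C57BL/6J, stood at 20.9, 21.1 and 20.7 CPM in the ataxin-3 line, against 20.2, 21.7 and 21.5 CPM in the Hcrt line. Its log2 fold change was -0.02 (SE 0.06), that of Wdfy1 was -0.05 and that of Alad was 0.06. Crb1, a retinal polarity protein, was at 0.43 (SE 0.19, edgeR's adjusted p = 1 after rounding).

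**Figure D3:**
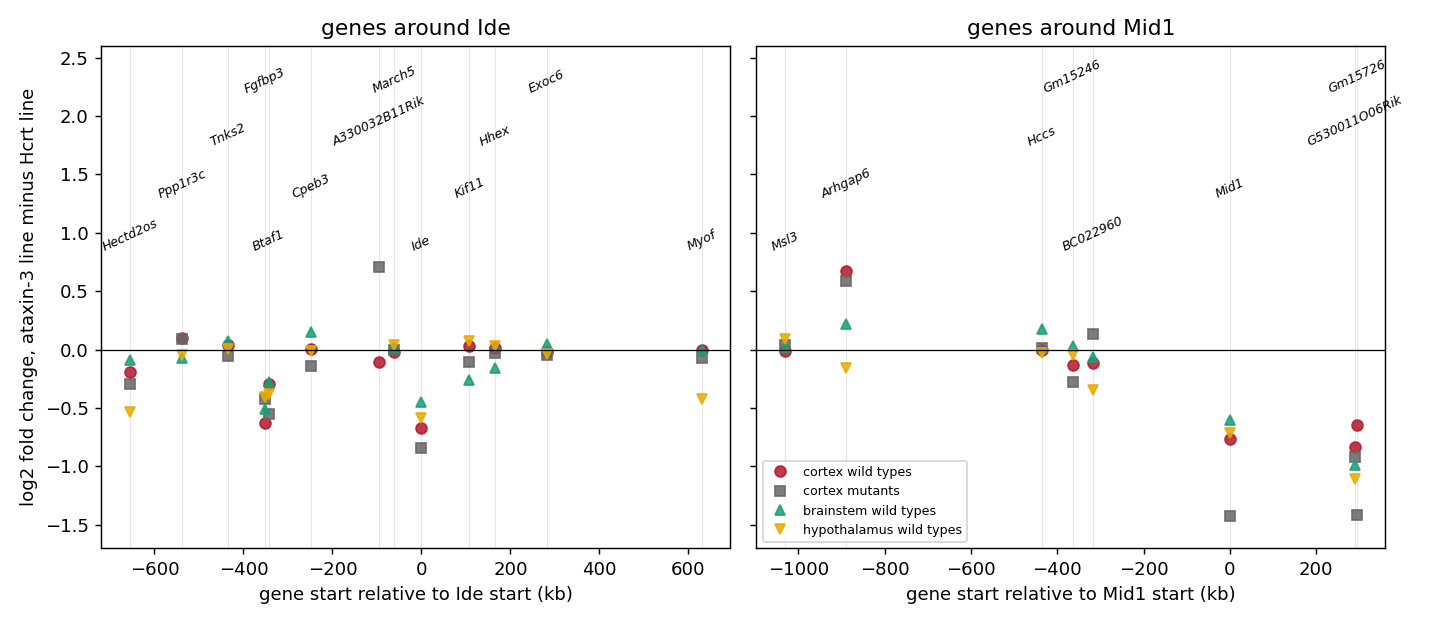
Log2 fold change between the lines (vertical axis, ataxin-3 line minus Hcrt line) of tested genes near Ide and near Mid1, by distance in kb from the start of that gene (horizontal axis), for cortex wild types, cortex mutants, and wild types of brainstem and hypothalamus. Fgfbp3 (-0.62 in cortex wild types), Btaf1 (-0.30), Ide and Mid1 lie below 0 in all 4 comparisons, while Cpeb3, A330032B11Rik (-0.11) and March5 between them lie near 0 in cortex wild types.

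Around Hcrt itself, on chromosome 11, more genes stood apart between the mutants than between the wild types, against different shares over all genes. Of 201 annotated genes within 1500 kb, 75 were tested, and 5 had an unadjusted p under 0.05 in wild types (3.26% of all genes), against 30 in mutants (8.73% of all genes). A difference of the line effect between genotypes was tested across all genes and called 4 (0.0243%), the long non-coding A830036E02Rik, the keratin gene Krt12, the potassium channel gene Kcnh4 and Ghdc, all near Hcrt. Kcnh4 had a log2 fold change of -0.08 (SE 0.08) in wild types and 1.27 (SE 0.08) in mutants. These 4 were named after their values were seen, and in mutants the line and the engineered Hcrt locus cannot be told apart.

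In the circadian clock, the activator Arntl lay higher and several of the genes it activates lay lower in the ataxin-3 line. The clock of every cell runs on Arntl (BMAL1) and its partner CLOCK, which bind E-boxes, letters CACGTG in their canonical form, and drive their own repressors, while REV-ERB and ROR receptors act on Arntl through elements that hold the letters AGGTCA. Arntl RNA and the RNA of its targets peak at opposite times of day, and the labels give no time of collection. Promoter windows of 250 bases before to 50 after the start are shown for the clock genes below, from RefSeq on GRCm38.p6, in capitals where a script found CACGTG or AGGTCA on either strand. Ciart is shown for its 3 E-boxes (chr3:95882179-95882478, minus strand), Bhlhe41 for 1 (chr6:145865371-145865670, minus strand), and Arntl for the receptor element in 1 of its 2 listed windows (chr7:113207261-113207560, plus strand).
Ciart: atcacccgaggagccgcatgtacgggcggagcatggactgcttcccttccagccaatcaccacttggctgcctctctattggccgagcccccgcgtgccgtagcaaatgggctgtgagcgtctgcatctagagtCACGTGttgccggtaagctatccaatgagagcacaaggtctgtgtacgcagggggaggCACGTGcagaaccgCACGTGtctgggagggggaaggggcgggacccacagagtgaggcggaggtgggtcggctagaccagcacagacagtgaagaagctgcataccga
Bhlhe41: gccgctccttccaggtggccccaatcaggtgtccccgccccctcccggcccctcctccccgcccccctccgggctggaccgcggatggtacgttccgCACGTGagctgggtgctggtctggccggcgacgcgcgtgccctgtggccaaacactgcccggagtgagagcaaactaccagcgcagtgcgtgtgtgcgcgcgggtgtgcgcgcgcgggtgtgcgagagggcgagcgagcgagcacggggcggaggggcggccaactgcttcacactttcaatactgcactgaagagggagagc
Arntl: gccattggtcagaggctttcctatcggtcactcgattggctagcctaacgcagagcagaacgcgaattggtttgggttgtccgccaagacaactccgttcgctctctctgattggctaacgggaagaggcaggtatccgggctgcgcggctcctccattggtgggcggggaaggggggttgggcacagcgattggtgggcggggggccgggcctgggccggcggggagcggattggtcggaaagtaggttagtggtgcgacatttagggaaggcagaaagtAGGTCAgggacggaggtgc
The window of Dbp held neither motif. Of 32851 windows in the table, 2349 hold CACGTG (7.15%) and 5340 hold AGGTCA (16.3%). A match describes letters and is no evidence of binding.

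Arntl stood at 39.2, 40.1 and 39.0 CPM in the ataxin-3 line, against 32.8, 33.3 and 34.3 CPM in the Hcrt line, a log2 fold change of 0.24 (SE 0.05, edgeR's adjusted p = 0.439). Ciart, with the 3 E-boxes, stood at 23.7, 21.4 and 22.9 CPM in the ataxin-3 line, against 28.4, 27.2 and 28.6 CPM in the Hcrt line (edgeR's adjusted p = 0.508). The groups did not overlap for either gene. Dbp, an output transcription factor of the clock, stood at 86.6, 79.1 and 78.6 CPM in the ataxin-3 line, against 98.1, 88.9 and 97.1 CPM in the Hcrt line (log2 fold change -0.22, SE 0.07). Bhlhe41 (DEC2), a repressor that has been tied to short sleep in humans, stood at 43.8, 40.0 and 41.9 CPM in the ataxin-3 line, against 45.9, 45.1 and 51.4 CPM in the Hcrt line (log2 fold change -0.18, SE 0.06). Of the 20 tested clock genes, 1 was higher (1.4% of all genes) and 3 were lower (1.86% of all genes) at an unadjusted p under 0.05, and 13 of 20 lay lower. Per3 (-0.11) and Nr1d1 (-0.03) lay nearer to 0, and the median of the list was -0.03. In mutants Arntl was 0.14 higher in the ataxin-3 line with groups that did not overlap, and Ciart stood at -0.03 with groups that did. Of the 20 clock genes 16 lay lower in mutants, with a median of -0.07. At an unadjusted p under 0.05, 6 were lower (4.07% of all genes) and 2 higher (4.67%). In brainstem wild types Arntl stood at 0.00, Ciart at -0.18 and Dbp at -0.26, and in hypothalamus at 0.03, -0.08 and -0.10.

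**Figure D4:**
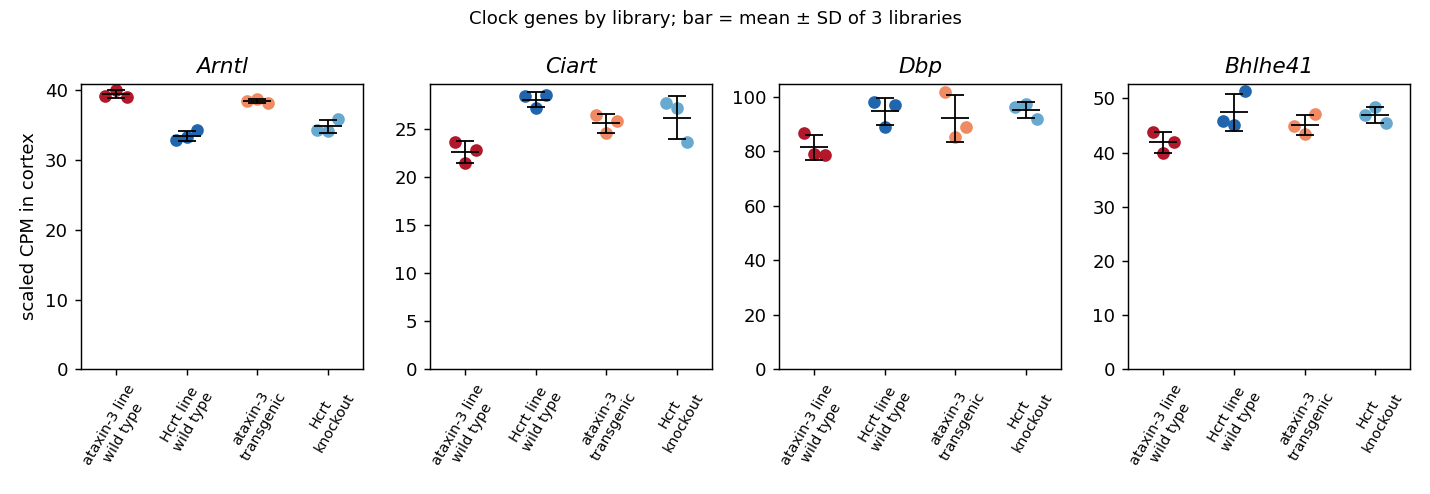
Scaled CPM (vertical axes) of Arntl, Ciart, Dbp and Bhlhe41 in each cortex library, as points with the mean and SD of 3 libraries, with the ataxin-3 line left of the Hcrt line for wild types and then for mutants. Arntl lies at 39.0 to 40.1 CPM in wild types of the ataxin-3 line and at 32.8 to 34.3 CPM in those of the Hcrt line, and Ciart lies the other way round in wild types and overlaps in mutants.

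Myelin genes lay lower in the ataxin-3 line without exception. Myelin is the membrane that oligodendrocytes wrap around axons, and cortex holds far less of it than the white matter below. All 28 genes of the mature oligodendrocyte list lay lower, 16 of them at an unadjusted p under 0.05 and 17 with groups that did not overlap, against 1.86% and 5.46% of all genes. The median log2 fold change of the list was -0.21, with a range of -0.36 to -0.01, against 0.00 for all genes, and no member passed the adjusted threshold. An earlier analysis of these libraries had already picked out this list, so its count is no independent evidence of its direction. The summed level was 5010, 4633 and 4872 CPM in the ataxin-3 line, against 5734, 5626 and 5426 CPM in the Hcrt line. In bulk tissue, fewer cells of a type and less RNA per cell cannot be told apart.

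Structural myelin proteins lay lower by like amounts, none past the threshold. Opalin, a membrane glycoprotein of oligodendrocytes, stood at 13.1, 12.9 and 12.9 CPM in the ataxin-3 line, against 17.3, 17.6 and 15.1 CPM in the Hcrt line (log2 fold change -0.36, SE 0.09). Mog, the outermost myelin glycoprotein, stood at 45.7, 43.4 and 42.9 CPM in the ataxin-3 line, against 51.7, 51.8 and 51.1 CPM in the Hcrt line (log2 fold change -0.23, SE 0.06). For both genes the lowest library of the Hcrt line lay above the highest of the ataxin-3 line. Cnp, an enzyme of the myelin loops, also did so and stood at 219.4, 205.9 and 202.9 CPM in the ataxin-3 line, against 245.1, 242.5 and 229.8 CPM in the Hcrt line (log2 fold change -0.19, SE 0.06). Genes of precursors and newly formed oligodendrocytes were split, 6 higher and 5 lower, with a median of 0.01. The lowest of them was Bcas1, a marker of oligodendrocytes that begin to myelinate, at -0.32 (SE 0.08).

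The mutants had the same side for this list and the other tissues did not. Between ataxin-3 transgenic and Hcrt knockout cortex, 25 of the 28 lay lower, 17 at an unadjusted p under 0.05 (4.07% of all genes), with a median of -0.18. The sums were 4439, 4970 and 4369 CPM in transgenic libraries, against 5297, 5091 and 5347 CPM in knockout libraries. In brainstem wild types 15 of 28 lay higher and the median was 0.03, and in hypothalamus wild types 25 lay higher with a median of 0.13. The difference of the line effect between cortex and hypothalamus was tested for each gene, and Mog had -0.38 with an adjusted p of 1 after rounding by edgeR.

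**Figure D5:**
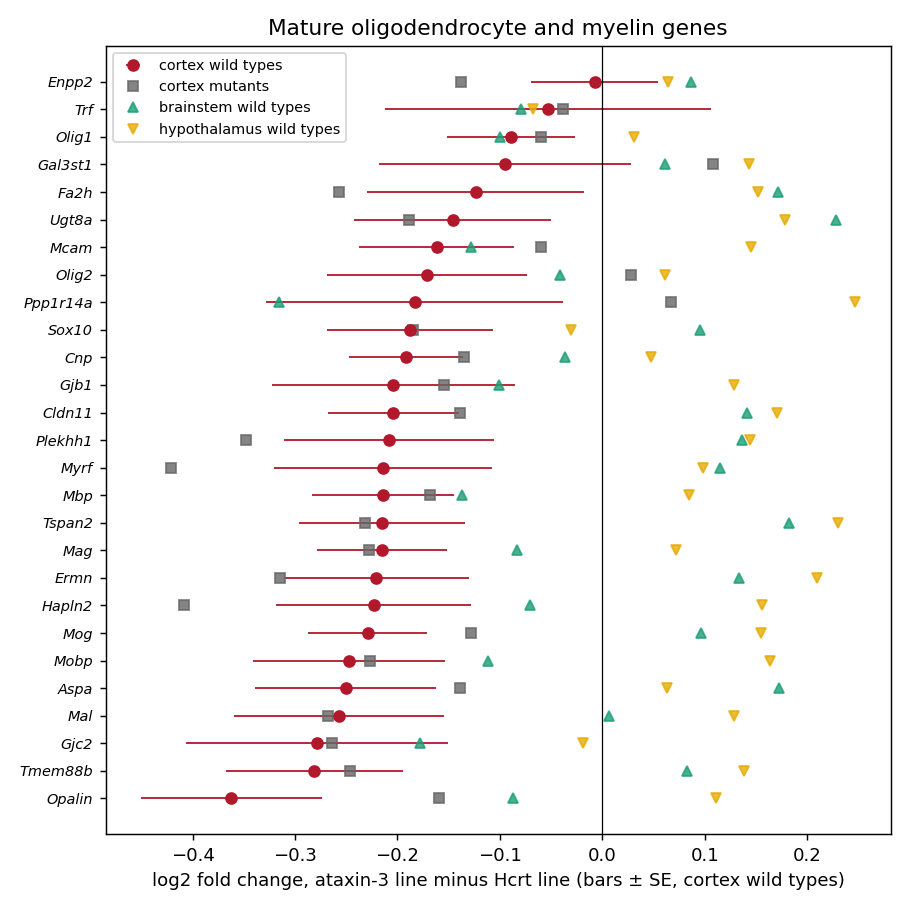
Log2 fold change (horizontal axis, ataxin-3 line minus Hcrt line) of 27 genes of the mature oligodendrocyte list, 1 gene a row, in cortex wild types with bars of 1 standard error, in cortex mutants, and in wild types of brainstem and hypothalamus. The cortex wild-type points run from -0.36 to -0.01, and 24 hypothalamus points lie above 0.

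Hippocampal genes leaned the other way. The hippocampus lies under the cortex, and of 14 of its marker genes tested, 12 lay higher in the ataxin-3 line, 4 at an unadjusted p under 0.05 (1.4% of all genes), with a median of 0.20. Their summed level was 775, 719 and 743 CPM in the ataxin-3 line, against 717, 692 and 675 CPM in the Hcrt line. Cpne7, a calcium-binding copine, stood at 65.7, 47.6 and 49.9 CPM in the ataxin-3 line, against 33.4, 35.5 and 43.7 CPM in the Hcrt line (log2 fold change 0.53, SE 0.14). Wfs1, the wolframin gene that marks field CA1 and also upper cortex, had 0.21 (SE 0.06), Neurod1, a transcription factor of granule neurons, 0.37 (SE 0.13), and Spink8, a protease inhibitor, 0.86 (SE 0.29). Mutants had a median of 0.34 for the list, but their sums overlapped, at 669, 736 and 736 CPM in transgenic libraries, against 718, 701 and 713 CPM in knockout libraries. The list sums of the striatum, another region below cortex, overlapped between the lines, at 566, 559 and 442 CPM in the ataxin-3 line and 677, 415 and 526 CPM in the Hcrt line. Its median log2 fold change was -0.07 in wild types and -0.69 in mutants, where 14 of 18 lay lower at an unadjusted p under 0.05 (4.07% of all genes). The striatal sums in mutants were 460, 594 and 439 CPM in transgenic libraries, against 668, 684 and 787 CPM in knockout libraries. Whether the hippocampal levels and the myelin levels are linked was not tested.

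Transcripts of 3 enzymes of the nasal mucosa, and Omp, came mostly from 1 library. Cyp2g1, a cytochrome P450 of the olfactory mucosa, had 0, 1 and 1 counts in the ataxin-3 line, against 11, 30 and 211 in the Hcrt line. Cyp2a5, another P450 of that tissue, had 1, 8 and 5 counts in the ataxin-3 line, against 17, 60 and 259 in the Hcrt line. Ugt2a2, an olfactory glucuronosyltransferase, had 0, 2 and 1 counts in the ataxin-3 line, against 5, 31 and 152 in the Hcrt line. Library 3 of the Hcrt line was the highest in each case, and without it the ratio of scaled summed counts was 0.0261 for Cyp2g1 (95% exact interval 0.00305 to 0.100), 0.0971 for Cyp2a5 (0.0507 to 0.173) and 0.0445 for Ugt2a2 (0.00877 to 0.141), intervals that cover counting error only. The 3 genes were picked for a small p and had few counts outside the Hcrt line, so these ratios describe them and support no difference between the lines. Omp, the marker of mature olfactory sensory neurons, stood at 0.332, 0.354 and 0.242 CPM in the ataxin-3 line, against 0.326, 0.939 and 8.30 CPM in the Hcrt line, and overlapped between the lines. Of the 9 bulb and epithelium genes of the list, 7 passed the filter on low counts, some of them through library 3 of the Hcrt line, so no count over them is given. The summed level of the list was 107.2, 123.4 and 120.9 CPM in the ataxin-3 line, against 106.4, 120.1 and 213.1 CPM in the Hcrt line, so library 3 alone set the sum apart. Among them Th, the dopamine-synthesis enzyme present in bulb neurons, was at 12.4 CPM in that library and at 1.35 to 1.92 CPM in the other 5.

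Transcripts of other neighbouring tissues did not follow the lines. The choroid plexus and ependymal list summed to 80.3, 99.9 and 18.9 CPM in the ataxin-3 line, against 34.5, 20.3 and 40.9 CPM in the Hcrt line. Gh, growth hormone of the pituitary, had 122, 0 and 28 counts in the ataxin-3 line, against 0, 0 and 10 counts in the Hcrt line.

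No gene of the hypocretin system passed the threshold. Hcrt had 3, 1 and 2 counts in the ataxin-3 line, against 1, 30 and 1 counts in the Hcrt line, so that library 2 of the Hcrt line gave the log2 fold change of -2.54 (SE 1.11), which was 0.76 without it. The receptor Hcrtr1 stood at 2.16, 2.02 and 2.29 CPM in the ataxin-3 line, against 3.00, 2.82 and 2.93 CPM in the Hcrt line (log2 fold change -0.43, SE 0.13, edgeR's adjusted p = 1 after rounding), with groups that did not overlap. In mutants Hcrtr1 was at -0.30, in brainstem at 0.04 and in hypothalamus at 0.13. Hcrtr2 stood at 2.43, 3.03 and 2.37 CPM in the ataxin-3 line, against 3.19, 2.85 and 2.81 CPM in the Hcrt line (log2 fold change -0.17, SE 0.13), with groups that overlapped. Atxn3, the mouse relative of the transgene and a deubiquitinase, stood at 41.4, 46.7 and 44.1 CPM in the ataxin-3 line, against 44.1, 46.1 and 48.3 CPM in the Hcrt line (log2 fold change -0.07, SE 0.07).

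Genes that mark hypocretin neurons in hypothalamus lay higher in cortex of the ataxin-3 line in 7 of 8 tested, 3 at an unadjusted p under 0.05, with a median of 0.19, against 48.7% of all genes higher and 1.4% higher at that p. The list has 10 genes. The cells that these transcripts came from were not determined. Lhx9, a homeobox factor, stood at 0.553, 0.606 and 0.527 CPM in the ataxin-3 line, against 0.130, 0.147 and 0.342 CPM in the Hcrt line (log2 fold change 1.36, SE 0.46). Slc17a6, the vesicular glutamate transporter of subcortical neurons, stood at 30.9, 30.9 and 31.2 CPM in the ataxin-3 line, against 24.8, 28.2 and 27.3 CPM in the Hcrt line (log2 fold change 0.21, SE 0.07). Across the list, 5 of 8 lay higher in mutants (median 0.14) and in brainstem wild types (0.04), and 7 of 8 in hypothalamus wild types (0.17). An earlier analysis of these libraries had picked out this list too.

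Among other neuropeptides, 12 of 20 lay higher. Nts, the precursor of neurotensin, stood at 1.33, 1.24 and 0.791 CPM in the ataxin-3 line, against 0.456, 0.558 and 0.488 CPM in the Hcrt line (log2 fold change 1.14, SE 0.27). Cartpt, the precursor of the CART peptide, was at 0.25 (SE 0.14). Of 24 ionotropic receptor subunits, 15 lay higher, led by Gabra2, a GABA receptor subunit, at 26.8, 27.6 and 28.0 CPM in the ataxin-3 line, against 23.3, 23 and 22.6 CPM in the Hcrt line (log2 fold change 0.26, SE 0.07). Of 25 immediate early genes, which neurons switch on with activity, 21 lay higher with a median of 0.10. Of them 1 had an unadjusted p under 0.05 (1.4% of all genes higher at that p), Jun, at 0.16 (SE 0.07). The median of the list in mutants was 0.00 to 2 decimals.

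Immune and housekeeping lists gave small shifts. Of 15 antigen presentation genes, 14 lay lower in the ataxin-3 line, 3 at an unadjusted p under 0.05 (1.86% of all genes), with a median of -0.12, and H2-Aa, a class II chain, was the lowest of those named at -0.55 (SE 0.22). In mutants the median was 0.01. Brainstem wild types had 14 of 15 lower with a median of -0.27, and hypothalamus wild types 13 of 15 with -0.21. Heat shock genes lay higher in 13 of 14 with a median of 0.05, cholesterol synthesis genes lay lower in 16 of 19 with a median of -0.05, and interneuron genes lay lower in 16 of 22 with a median of -0.05. Ribosomal protein genes were split 16 to 14 with a median of 0.00 to 2 decimals. Astrocyte genes were split evenly, 8 to 8, with a median of 0.01, and the highest of those named was Agt, angiotensinogen, at 6.72, 6.37 and 5.45 CPM in the ataxin-3 line, against 4.50, 3.85 and 4.74 CPM in the Hcrt line (log2 fold change 0.50, SE 0.13). Microglial genes had a median of 0.01.

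The wild-type comparison took no group mean from the 6 cortex libraries of the mutants. Those libraries did share its fit, and with it the filter and the estimate of spread. The p-values of wild types and of mutants are therefore not independent. Between the mutants, each of the 10 higher and 10 lower genes named for a small p had the same direction. So had 189 of all 231 genes higher and 224 of all 307 lower at an unadjusted p under 0.05 in wild types. In the comparison of mutants 17 of 16479 genes were called (0.103%). Of these, 10 were higher in ataxin-3 transgenic mice (0.0607%) and 7 lower (0.0425%), and there the line and the mutation cannot be told apart. The 17 calls became 6 to 55 when 1 library was left out, with 55 without transgenic library 1, 47 without transgenic library 2, 6 without transgenic library 3, and 10, 7 and 7 without knockout libraries 1, 2 and 3. At an unadjusted p under 0.05 there were 8.73% of all genes. Transgenic library 1 stood apart from the other cortex mutants, its ribosomal protein list summing to 4697 CPM. That sum was 3325 and 3377 CPM in transgenic libraries 2 and 3, and 3384, 3354 and 3343 CPM in knockout libraries. Apart from the counts of calls with a library left out, the mutant values given here include transgenic library 1. Of the 17, 8 lie within 10 Mb of Hcrt, and none of these 8 had an unadjusted p under 0.05 in wild types. The other 9 had the same sign in wild types, 8 of them with an unadjusted p under 0.05 (3.26% of all genes). Of these 10 higher and 10 lower genes named for a small p, 9 and 8 had groups that did not overlap in mutants (5.57% of all genes higher, 6.15% lower). Called in mutants were Nnat (log2 fold change 0.71, SE 0.10, edgeR's adjusted p = 0.00621), Lypd1 (0.53, adjusted p = 0.00974), Ide (-0.84, SE 0.12, adjusted p = 0.0199) and Mid1 (-1.43, SE 0.18, adjusted p = 0.00522). Agt (0.86, adjusted p = 0.0195) and Btaf1 (-0.55, adjusted p = 0.0313) were called too. Nnat stood at 77.5, 62.9 and 75.4 CPM in ataxin-3 transgenic cortex, against 46.2, 40.4 and 44.9 CPM in Hcrt knockout cortex. Ide stood at 63.4, 72.8 and 63.0 CPM in transgenic cortex, against 123.5, 118.3 and 114.1 CPM in knockout cortex.

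Over all genes the overlap of the genotypes was partial. Of the 231 genes higher in wild types at an unadjusted p under 0.05, 73 (31.6%) were also among the 769 higher in mutants (4.67% of all genes), which is 9.49% of those 769, and 3 were among the lower. Of the 307 lower in wild types, 72 (23.5%) were among the 670 lower in mutants (4.07%), which is 10.7% of those 670, and 4 were among the higher. When wild type and mutant of each line were averaged, 41 genes were called (0.249%), 29 higher in the ataxin-3 line (0.176%) and 12 lower (0.0728%). With 1 library left out the 41 became 18 to 154, the lowest without knockout library 1 and the highest without transgenic library 1. Without transgenic libraries 2 and 3 in turn it was 94 and 27, without knockout libraries 2 and 3 it was 19 and 21, without ataxin-3 line wild types 1, 2 and 3 it was 23, 21 and 27, and without Hcrt line wild types 1 and 2 it was 23 and 20. Of the 41, 35 lay outside the 10 Mb around Hcrt. The wild types are part of that average, so it lends their own values no separate support. It included Dio3 (adjusted p = 0.0145), Hrk (0.0259), Arhgap6 (0.00556) and Arntl (0.0407) by edgeR.

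Between the wild types edgeR called 0 genes in brainstem, where 2451 (14.9%) had an unadjusted p under 0.05. DESeq2 called 286 there, and edgeR called 1177 without library 3 of the ataxin-3 line. That left brainstem libraries 1 and 2 of the line, where 32.3% and 42.0% of counts named no gene. The share was 27.0% in library 3 and 28.0% to 28.6% in the Hcrt line, and its effect on the calls was not tested. In hypothalamus edgeR called 0 genes, with 383 (2.29%) at an unadjusted p under 0.05 and 2 by DESeq2, and 3 by edgeR without library 2 of the Hcrt line. Of the 10 higher genes named for a small p, 7 of the 8 tested in brainstem and 4 of the 10 tested in hypothalamus had the same sign. Of the 10 lower genes it was 5 of 7 and 7 of 10. Among all 231 genes higher at an unadjusted p under 0.05 in cortex, it was 124 of 204 tested in brainstem and 99 of 216 in hypothalamus. Among all 307 lower it was 141 of 276 and 178 of 286. Dio3 stood at -1.10 in hypothalamus, Nnat at -0.24 in brainstem and 0.09 in hypothalamus, and Arhgap6 at 0.22 and -0.15. The difference of the line effect between cortex and brainstem was called by edgeR for 0 genes, with 768 (4.33%) at an unadjusted p under 0.05, 5 by DESeq2, and 19 by edgeR without library 3 of the ataxin-3 line in brainstem. The difference between cortex and hypothalamus was called by edgeR for 0 genes, with 555 (3.13%) at an unadjusted p under 0.05, 0 by DESeq2, and 24 by edgeR without library 2 of the Hcrt line in hypothalamus.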

How the data were processed

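Polyadenylated RNA was sequenced in 36 libraries, of which the 12 cortex libraries were fitted here and the 6 of wild types compared. The authors deposited raw counts per Ensembl gene, 1 table per library, not normalized. Per the submitters' processing notes, cutadapt 1.2.1, TopHat2 2.0.9 and HTSeq 0.5.4p3 were used with GRCm38. Per the labels' protocols, libraries were made with a stranded kit from total RNA. How the counting used strand, and which annotation release, is not given in the sources used here, so overlapping and antisense genes, such as A830036E02Rik and pairs like Hectd2os, are uncertain, as are genes with near-identical copies. Lines that name no gene held 29.4% to 30.9% of each cortex wild-type library and were left out.

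Counts were normalized by the trimmed mean of M values, filtered by edgeR's filterByExpr on group, and tested in edgeR 4.0.16 (R 4.3.3) by the robust quasi-likelihood test over the 4 cortex groups, with Benjamini-Hochberg adjustment and a threshold of 0.05. Brainstem and hypothalamus were fitted likewise, and differences between tissues in a fit of all 36 libraries. The standard error (SE) of a log2 fold change was taken as its size divided by the root of the F statistic. Levels are scaled CPM of single libraries, in the order of their replicate numbers. A level under 3 counts, which is 0.0652 to 0.0973 CPM in these libraries, is at the limit of the depth. The script was tested on simulated data.

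Alternatives were relative log expression factors, DESeq2 1.42.0, no filter, CPM over 1 in at least 3 libraries, and the 6 libraries alone. Others were a replicate block, limma 3.58.1 voom with sample quality weights, and leaving out single libraries. Libraries were left out only from the groups that a comparison set against each other. Leaving out libraries 2 and 3 of the Hcrt line together, and averaging the genotypes, were chosen after seeing the data. The rule for named genes takes the 10 smallest p in each direction where fewer than 10 genes pass. Predicted genes (Gm and Rik names), unnamed identifiers and pseudogenes are passed over there unless among the 3 largest changes of their direction. The rule also takes up to 4 members with the smallest p of each list discussed, and Hcrt, Hcrtr1, Hcrtr2, Atxn3 and Nnt always. Genes near Ide, Mid1 and Hcrt, the genes Omp, Gh, Th, Per3, Nr1d1 and Cartpt where they fall outside it, and genes called in mutants were chosen after their values were seen. Members and the 39 gene lists were chosen with earlier results of these data known. A gene that the rule would name is not reported here, though counts over lists include it.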

Additional observations from a re-analysis of the deposited data

Results flagged for a closer look

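The difference between the lines was itself tested between genotypes in cortex, as the log2 fold change in wild types minus that in mutants, and 4 genes passed edgeR's adjusted threshold, all on chromosome 11 near Hcrt. For A830036E02Rik the difference was -6.24 (adjusted p = 4.93e-14). Its level was 105.2, 119.3 and 119.7 CPM in ataxin-3 line wild types, against 104.1, 112.4 and 117.7 CPM in Hcrt line wild types, and 112.1, 114.0 and 122.9 CPM in ataxin-3 transgenic libraries, against 1.5, 1.43 and 1.52 CPM in Hcrt knockout libraries. For Krt12 the difference was -2.14 (edgeR adjusted p = 1.35e-05), for Kcnh4 -1.35 (2.56e-05) and for Ghdc -1.07 (0.00208). In each of the 4 the mutants, not the wild types, held the gap between the lines, with log2 fold changes of 0.04, 0.02, -0.08 and 0.04 in wild types and of 6.29, 2.17, 1.27 and 1.11 in mutants, in the order given. The line and the mutation cannot be told apart in the mutants.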

How the results depend on the processing

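Between the cortex wild types, the count of 0 genes higher in the ataxin-3 line became 8 with DESeq2 and 11 with the 6 libraries alone. It became 16 with voom and quality weights, and stayed at 0 with any 1 of the 6 wild-type libraries left out. Mutant libraries, which share the fit, were not left out of this comparison. The count of 0 lower became 8, 5 and 7 in the same settings, and ranged from 0 to 2 with 1 wild-type library left out. It was 2 without library 1 of the Hcrt line (Cyp2a5, Ugt2a2) and 1 without library 2 (Mid1). Without libraries 2 and 3 of the Hcrt line it was 1, Icam1, an adhesion protein gene. With the replicate number as a block 0 genes were higher and 3 lower, Cyp2g1, Ide and Pisd-ps2, but the numbers share nothing that the labels state, and the deviations of same-numbered libraries correlated at 0.257, -0.00136 and -0.0321. Relative log expression factors, no filter and the stricter filter gave 0 in both directions.

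In brainstem the count of 0 became 19 without a filter and 286 with DESeq2, and ranged from 0 to 1177 with 1 library left out. The highest was without library 3 of the ataxin-3 line, which left the line's brainstem libraries with the larger shares of counts that named no gene. In hypothalamus it became 2 with DESeq2 and ranged from 0 to 3. The 17 genes of the cortex mutants became 37 without a filter and 54 with DESeq2, and ranged from 6 to 55. The difference of cortex from brainstem became 5 with DESeq2 and ranged from 0 to 19, and that of cortex from hypothalamus ranged from 0 to 24. The 4 genes that differed between genotypes became 8 with DESeq2. The 41 genes of the averaged genotypes became 104 with DESeq2 and ranged from 18 to 154. The cause of these shifts was not tested, beyond the samples and genes that each setting removes.

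Of 25 named genes, 19 were called in at least 1 alternative and 3 changed sign. The most that any alternative called was 23 of 16479 genes, by voom with quality weights. Most of the 25, the 10 of each direction, were chosen for a small p in these same libraries, so their calls lend no separate support. Hcrt ranged from -3.16 to 0.76 with 1 library left out, the highest without library 2 of the Hcrt line, and was 0.56 without libraries 2 and 3. Nnt ranged from -0.045 to 0.0066, and was 0.051 without both, where Atxn3 was 0.0024. The biological coefficient of variation of the cortex fit was 7.35%. Depth limits the genes near 3 counts, such as Hcrt, Igha and the nasal genes.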
